A study of Mus musculus with 22 samples.

Results

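The genes examined here were the core components of NF-κB signaling, chosen by symbol and taken from the count table through their Ensembl identifiers. They were 4 Rel-family subunits (Nfkb1, Nfkb2, Rela and Relb), 3 IκB inhibitors (Nfkbia, Nfkbib and Nfkbie) and the 3 genes of the IκB kinase (IKK) complex (Ikbkb, Chuk and Ikbkg), which makes 10 of the 39056 genes in the table, and each symbol was found. On GRCm38 the gene bodies lie as follows in the GENCODE annotation: Nfkb1 (ENSMUSG00000028163, chr3:135584655-135691547), Nfkb2 (ENSMUSG00000025225, chr19:46304320-46312385), Rela (ENSMUSG00000024927, chr19:5637483-5648130), Relb (ENSMUSG00000002983, chr7:19606217-19629438), Nfkbia (ENSMUSG00000021025, chr12:55489410-55492647), Nfkbib (ENSMUSG00000030595, chr7:28758251-28767512), Nfkbie (ENSMUSG00000023947, chr17:45555703-45563169), Ikbkb (ENSMUSG00000031537, chr8:22659212-22706589), Chuk (ENSMUSG00000025199, chr19:44073335-44107480) and Ikbkg (ENSMUSG00000004221, chrX:74393290-74453854). RNA came from the prefrontal cortex (PFC) of 11 male mice aged 8 to 12 weeks on a C57BL/6J background. Every mouse, controls included, carried a tetO-EGFP/Rpl10a transgene and a CaMKIIα-tTA driver, so that a ribosomal protein tagged with EGFP was made where the CaMKIIα promoter was active. Control mice received saline (n = 3), EtOH mice ethanol at a daily dose of 2 g/kg (n = 4), and EtOH + ABT-888 mice the same ethanol plus the PARP inhibitor ABT-888 at 25 mg/kg on day 4 (n = 4), and tissue was collected 2 h after the last injection. All mice had 2 intraperitoneal injections per day for 4 days. There was no group given ABT-888 without ethanol. From each homogenate one library was made from RNA bound to the tagged ribosomes (translating ribosome affinity purification, TRAP) and one from all RNA (total-RNA), 22 libraries in 6 groups.

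NF-κB is a dimer of Rel-family proteins that is held in the cytoplasm by IκB proteins until the IKK complex phosphorylates the inhibitor and marks it for destruction, after which the dimer enters the nucleus and turns on genes of inflammation and survival. The gene of the inhibitor IκBα, Nfkbia, is itself a target of NF-κB and of the glucocorticoid receptor, so that its transcript is widely read as an early response gene. In brain tissue the pathway is known mainly from microglia, astrocytes and endothelium, and it is also present in neurons. PARP1, the target of ABT-888, is known as a nuclear coactivator of NF-κB.

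TRAP libraries held 6570957 to 22002618 counts and total-RNA libraries 22132534 to 32421392 counts, so that TRAP values rest on fewer reads. All 10 genes passed the study's filter on low counts, but Nfkbie had 591 counts and Nfkb2 had 696 counts over the 22 libraries, against 23156 counts for Ikbkg. The cell types behind the pools were checked with marker genes. Markers of astrocytes and of endothelium and pericytes were lower in TRAP than in total-RNA at 8 of 8 genes each in all 3 treatments, those of microglia at 8, 8 and 7 of 8 genes, and those of oligodendrocytes at 8, 7 and 7 of 8 genes (edgeR, adjusted p under 0.05). The labelled cell type was not clear from its markers: 9 of 10 cortical excitatory markers were also lower in TRAP in each treatment, whereas 10 of 10 markers of striatal projection neurons, a list added after the data were seen, were higher. Between pools 59.9%, 50.7% and 41.0% of all genes were called in Control, EtOH and EtOH + ABT-888 mice, and 30.4%, 26.5% and 21.5% were lower in TRAP. Of 8 interneuron markers 3 were higher in each treatment and 3, 4 and 4 lower, and their summed level was 1676.61 to 2323.52 CPM in TRAP and 772.718 to 1071.25 CPM in total-RNA. Summed striatal markers ran from 13079.5 to 16086.5 CPM in TRAP and from 1428.36 to 2764.69 CPM in total-RNA. Camk2a, the gene whose promoter drives the tag, was the exception among the excitatory markers, with group means of 1883 to 2575 CPM in TRAP and 2092 to 2472 CPM in total-RNA.

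Among the components of the pathway, the inhibitor Nfkbia rose in total-RNA after ethanol and the kinase gene Ikbkb fell. No subunit gene passed the test between treatments in either pool. In TRAP no component passed after ethanol, and none passed between ethanol with and without ABT-888. Nfkb1 was lower on the tagged ribosomes than in total-RNA in Control and EtOH mice, and in EtOH + ABT-888 mice when the mouse was taken as a block, Nfkbia was lower there in both ethanol groups, and Relb was higher there in Control mice. Levels are given throughout as CPM, counts relative to the library total after scaling by TMM factors, and differences as log2 fold changes of edgeR's quasi-likelihood test, called at an adjusted p under 0.05 over the 14072 genes tested.

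**Figure D1:**
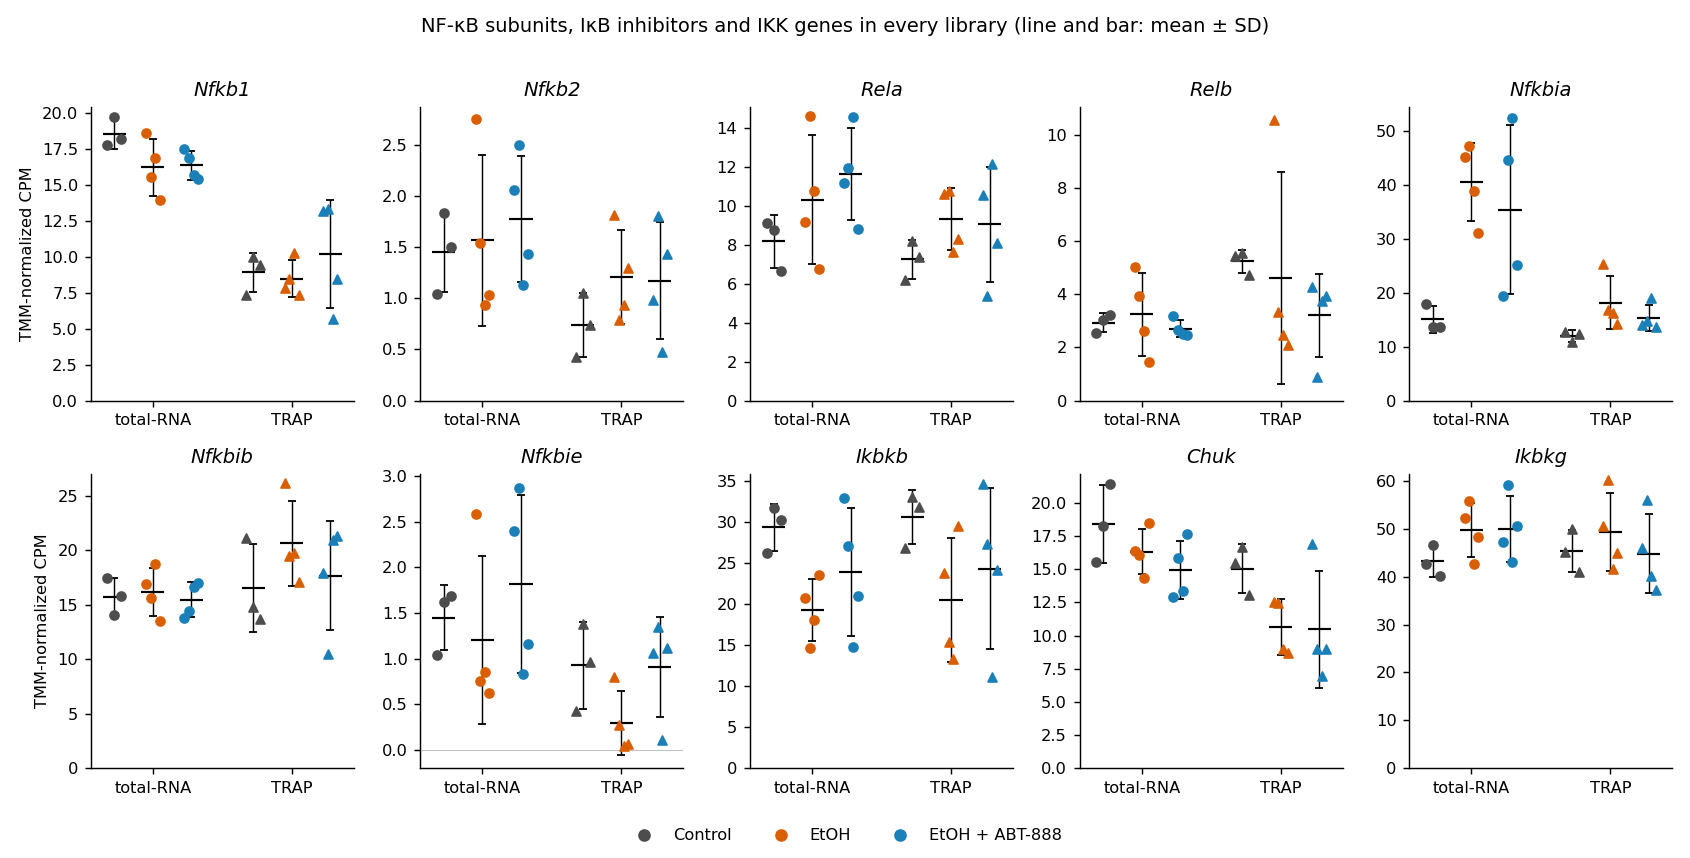
TMM-normalized CPM of the 10 genes (vertical axes, each starting at or just under 0) in every library, circles for total-RNA and triangles for TRAP, with the treatment by color and the group mean ± SD in black. The 4 EtOH total-RNA libraries of Nfkbia sit between 31.1 and 47.3 CPM, above the 3 Control libraries at 13.6 to 17.9 CPM, and those of Ikbkb sit below Control.

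Levels between genes were compared per length, as CPM per kb of merged exons. In Control total-RNA the order of the mean levels was Nfkbia at 9.37, Nfkbib at 7.25, Ikbkg at 5.33, Chuk at 3.62, Rela at 2.67, Ikbkb and Nfkb1 at 1.54 each, Relb at 0.754, Nfkbie at 0.476 and Nfkb2 at 0.318 CPM per kb. The libraries of neighbouring genes did not overlap in this order except for the pairs Ikbkb with Nfkb1 and Nfkbie with Nfkb2. In Control TRAP, Nfkbib (7.63 CPM per kb) and Nfkbia (7.44 CPM per kb) overlapped at the top, and Relb (1.35 CPM per kb) stood above Nfkb1 (0.740 CPM per kb) with no overlap, the reverse of their order in total-RNA. After ethanol the mean level of Nfkbia in total-RNA was 25.2 CPM per kb, and the next gene, Nfkbib, was at 7.46 CPM per kb with no overlap. By this measure the inhibitors Nfkbia and Nfkbib and the scaffold Ikbkg were the 3 highest components in every group. Nfkbie and Nfkb2 were the lowest 2. The order depends on the merged lengths, which take in all annotated exons and run from 1610 bases for Nfkbia to 19078 for Ikbkb. The length of the transcripts present was not measured. Undivided, the Control total-RNA means were 43.2 CPM for Ikbkg, 29.4 CPM for Ikbkb and 15.1 CPM for Nfkbia.

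**Figure D2:**
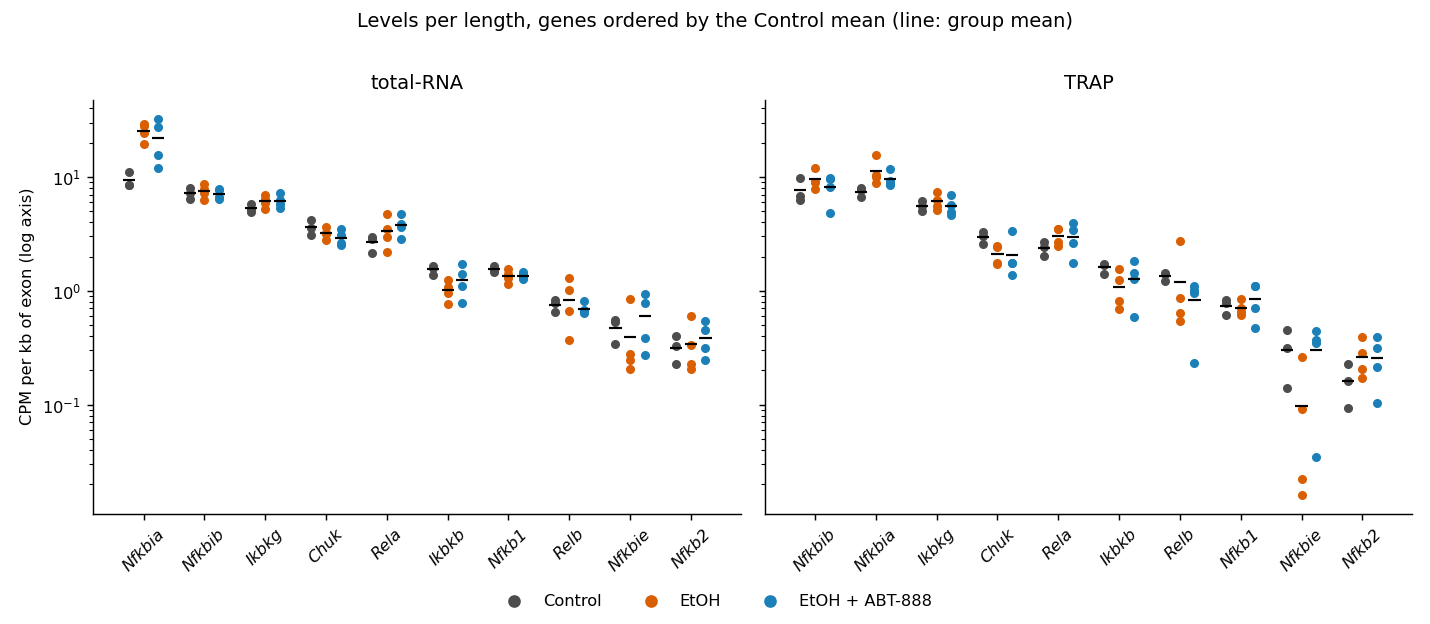
CPM per kb of exon on a log axis for the 10 genes, ordered by the Control mean in total-RNA and in TRAP, with 1 point per library and a line at each group mean. Nfkbia is the gene whose EtOH libraries all lie above the Control range, in total-RNA and by less in TRAP, and the lowest points are Nfkbie in TRAP.

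The subunit genes did not pass the test in any treatment comparison. Nfkb1 encodes p105, the precursor of p50, the partner of RelA in the most common dimer. In total-RNA its level was 17.8, 19.8 and 18.2 CPM in Control mice 1, 4 and 7, 18.6, 15.6, 16.9 and 13.9 CPM in EtOH mice 2, 5, 8 and 9, and 17.5, 16.9, 15.7 and 15.4 CPM in EtOH + ABT-888 mice 3, 6, 10 and 11. The EtOH libraries overlapped Control and those of EtOH + ABT-888 lay just below it. The log2 fold change from Control was -0.19 (95% interval -0.48 to 0.10) with EtOH and -0.18 (-0.46 to 0.10) with EtOH + ABT-888 (edgeR, adjusted p = 0.349 and 0.526). In TRAP the level of Nfkb1 was 7.36, 9.97 and 9.44 CPM in Control, 7.86, 8.49, 10.3 and 7.34 CPM in EtOH and 13.2, 13.4, 5.70 and 8.47 CPM in EtOH + ABT-888, in the same order of mice, and the 3 groups overlapped.

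Rela encodes RelA (p65), the subunit with the main activation domain. Its total-RNA level was 9.14, 8.77 and 6.65 CPM in Control, 9.18, 14.7, 10.8 and 6.75 CPM in EtOH and 11.2, 11.96, 14.6 and 8.82 CPM in EtOH + ABT-888. Each group overlapped the others. The difference between EtOH + ABT-888 and Control was 0.51 on the log2 scale (95% interval 0.07 to 0.96), which passed only unadjusted (edgeR, adjusted p = 0.253), and that between EtOH and Control was 0.34 (-0.15 to 0.84; adjusted p = 0.318). In TRAP the Rela libraries ran from 5.40 to 12.2 CPM over the 3 treatments, with differences of 0.38 (-0.16 to 0.92) and 0.34 (-0.34 to 1.02) from Control.

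Nfkb2 and Relb form the dimer of the noncanonical branch. Nfkb2, which encodes p100 and its product p52, was measured at 0.427 to 1.82 CPM in TRAP (4 to 25 counts per library) and 0.937 to 2.76 CPM in total-RNA, and its intervals were wide: its log2 fold change between EtOH and Control in TRAP was 0.67 (-0.63 to 1.97; adjusted p = 0.538). An exon overlap of 830 bases with 2 genes on the opposite strand limits the Nfkb2 counts, since it is not stated whether the counting used strand. Relb had a single EtOH library far from the rest: its TRAP level was 5.44, 5.54 and 4.72 CPM in Control, 10.6, 3.34, 2.46 and 2.11 CPM in EtOH, and 4.26, 0.901, 3.75 and 3.93 CPM in EtOH + ABT-888. The other 3 EtOH libraries and all 4 EtOH + ABT-888 libraries lay below the Control range. The log2 fold change of Relb between EtOH and Control in TRAP was -0.19 (-1.25 to 0.87; edgeR, adjusted p = 0.855) with mouse 2 and -0.95 (adjusted p = 0.125) without it. Between EtOH + ABT-888 and Control it was -0.67 (-1.63 to 0.30; adjusted p = 0.577), and -0.40 (adjusted p = 0.646) without mouse 6, whose TRAP library was the shallowest and held 6 Relb counts.

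The inhibitors behaved differently from each other. Of the 3, the promoter windows of Nfkbia and Nfkbie are shown because they are the inhibitor that rose and the one that was barely detected, together with a stretch of Nfkb2 that holds the same kind of run. They were taken from RefSeq on GRCm38.p6, whose windows of 250 bases before to 50 bases after a start covered 7 of the 10 genes. Capitals mark matches, on either strand, to the κB letters GGACTTTCC or to GGGA and TTTCC with 1 base of any kind between them (the first lies inside the second when that base is C). The Nfkbia stretch is chr12:55492648-55492897 on the minus strand and the Nfkbie stretch chr17:45555450-45555699 on the plus strand, each the 250 bases before the transcription start, and the Nfkb2 stretch is 30 bases at chr19:46305695-46305724 on the plus strand, inside the gene.
Nfkbia: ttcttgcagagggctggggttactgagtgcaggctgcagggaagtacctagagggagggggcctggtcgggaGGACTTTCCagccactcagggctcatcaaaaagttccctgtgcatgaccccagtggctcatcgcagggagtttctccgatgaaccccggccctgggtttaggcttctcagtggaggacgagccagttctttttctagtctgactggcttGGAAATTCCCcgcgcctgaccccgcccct
Nfkbie: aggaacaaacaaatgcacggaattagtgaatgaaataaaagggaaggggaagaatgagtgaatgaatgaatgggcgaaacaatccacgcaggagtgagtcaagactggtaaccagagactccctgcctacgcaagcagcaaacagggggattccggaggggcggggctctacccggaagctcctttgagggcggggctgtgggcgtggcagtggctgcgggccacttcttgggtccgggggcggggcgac
Nfkb2: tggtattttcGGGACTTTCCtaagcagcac
In the Nfkbia window the 2 runs start at -178 and -29 relative to the transcription start, the second on the opposite strand. Such runs were found in 3 of the 12 windows of the 7 genes, 1 of Nfkbia and 2 of Nfkb2 that overlap and hold the same run. Of all 32851 such windows, each searched whole, 0.411% held the run with the free base and 0.344% held GGACTTTCC, whereas a looser form, GGG and CC with 5 free bases between, was in 50.8% of windows and in 9 of the 12 windows of the 7 genes. The glucocorticoid receptor letters, AGAACA and TGTTCT with 3 free bases between, were in 0.00913% of windows and in none of these. These are matches of letters and do not show binding.

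Nfkbia, which encodes IκBα, rose in total-RNA with ethanol. Its level was 17.9, 13.6 and 13.7 CPM in Control mice 1, 4 and 7, and 45.1, 47.3, 38.8 and 31.1 CPM in EtOH mice 2, 5, 8 and 9. In EtOH + ABT-888 mice 3, 6, 10 and 11 it was 19.5, 44.6, 52.4 and 25.1 CPM. Every treated library lay above every Control library, and within the EtOH + ABT-888 group mouse 3 was just above the Control range, mouse 11 between Control and EtOH, mouse 6 within the EtOH range and mouse 10 above it. The means were 15.1 ± 2.48 (SD, n = 3), 40.6 ± 7.29 (SD, n = 4) and 35.4 ± 15.7 CPM (SD, n = 4). The EtOH level was 2.70-fold that of Control, a log2 fold change of 1.43 (SE 0.16; edgeR, adjusted p = 0.000322). With EtOH + ABT-888 the difference from the same Control libraries was 1.24 (SE 0.32, 95% interval 0.54 to 1.94) and did not pass (edgeR, adjusted p = 0.116), but it passed by edgeR's exactTest (0.00961), by DESeq2 (0.00440) and without mouse 3 (1.44, adjusted p = 0.0130). EtOH + ABT-888 did not differ from EtOH by the test (-0.20, 95% interval -0.79 to 0.39, adjusted p = 1.00).

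On the tagged ribosomes the change of Nfkbia was smaller and did not pass. Its TRAP level was 12.8, 10.8 and 12.3 CPM in Control, 25.3, 16.8, 16.2 and 14.2 CPM in EtOH, and 13.9, 14.9, 18.99 and 13.6 CPM in EtOH + ABT-888. All treated libraries again lay above the Control range, with EtOH mouse 2 the highest. The log2 fold change was 0.61 with EtOH (95% interval 0.12 to 1.11; edgeR, adjusted p = 0.135) and 0.38 with EtOH + ABT-888 (-0.13 to 0.88; adjusted p = 0.545). In each of these comparisons the direction was kept, and the gene not called, under 6 other settings and on leaving out each of 7 libraries.

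Nfkbib and Nfkbie, the genes of IκBβ and IκBε, did not change by the test. Nfkbib was steady in total-RNA at 13.5 to 18.7 CPM, and its difference from Control was 0.04 (95% interval -0.28 to 0.36) with EtOH and -0.02 (-0.34 to 0.30) with EtOH + ABT-888, intervals that leave out changes of the size seen for Nfkbia. In TRAP it ran from 10.5 to 26.2 CPM. Its exons overlap 2 genes on the other strand over 356 bases. Nfkbie was rare, at 0.427, 1.38 and 0.967 CPM in Control TRAP, 0.800, 0.278, 0.0491 and 0.0680 CPM in EtOH TRAP and 1.07, 1.35, 0.106 and 1.12 CPM in EtOH + ABT-888 TRAP. The low values stand for 1 count each in EtOH mice 8 and 9 and 2 counts in EtOH + ABT-888 mouse 10. The difference between EtOH and Control in TRAP was -1.69 on the log2 scale (-3.61 to 0.23; edgeR, adjusted p = 0.274). It was -2.69 (adjusted p = 0.0977) without EtOH mouse 2, and -1.29 without Control mouse 4 (adjusted p = 0.586).

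The IKK complex is built from the catalytic subunits IKKβ (Ikbkb) and IKKα (Chuk) and the scaffold NEMO (Ikbkg). Ikbkb fell in total-RNA with ethanol: its level was 26.2, 31.8 and 30.3 CPM in Control, 20.7, 14.7, 18.1 and 23.6 CPM in EtOH, and 33.0, 27.1, 14.8 and 21.02 CPM in EtOH + ABT-888. The EtOH libraries lay below Control with no overlap, while those of EtOH + ABT-888 overlapped both other groups. The log2 fold change was -0.61 with EtOH (SE 0.16; edgeR, adjusted p = 0.0201) and -0.29 with EtOH + ABT-888 (95% interval -0.81 to 0.22; adjusted p = 0.563). The call for EtOH was lost without Control mouse 4 (adjusted p = 0.0952) or mouse 7 (0.0760) and when one model was fitted to the 22 libraries together (0.338). In TRAP the level was 26.9, 33.1 and 31.9 CPM in Control, 23.8, 15.4, 13.3 and 29.5 CPM in EtOH and 34.7, 27.3, 11.1 and 24.1 CPM in EtOH + ABT-888. Of the EtOH TRAP libraries, mouse 9 was within the Control range and the others below it. The TRAP difference with EtOH was -0.57 (-1.12 to -0.02; adjusted p = 0.200), and it passed without EtOH mouse 9 (-0.81, adjusted p = 0.0391). Mice 5, 8 and 10 were the lowest in both pools.

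Chuk and Ikbkg did not pass the test in any treatment comparison. Chuk in TRAP was at 15.5, 16.7 and 13.03 CPM in Control and at 12.5, 12.4, 8.99 and 8.70 CPM in EtOH, all 4 below Control, with a log2 fold change of -0.48 (-0.97 to 0.01; edgeR, adjusted p = 0.224). In EtOH + ABT-888 TRAP it was at 16.9, 9.01, 6.96 and 8.97 CPM, with mouse 3 above the Control range and the others below. The Chuk difference in total-RNA was -0.17 with EtOH (-0.49 to 0.14). Ikbkg, the most deeply covered of the genes, ran from 37.2 to 60.3 CPM in TRAP and 40.3 to 59.2 CPM in total-RNA, and its difference from Control lay between -0.00 and 0.21 on the log2 scale over both treatments and pools. Its exons overlap G6pdx on the other strand over 418 bases.

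**Figure D3:**
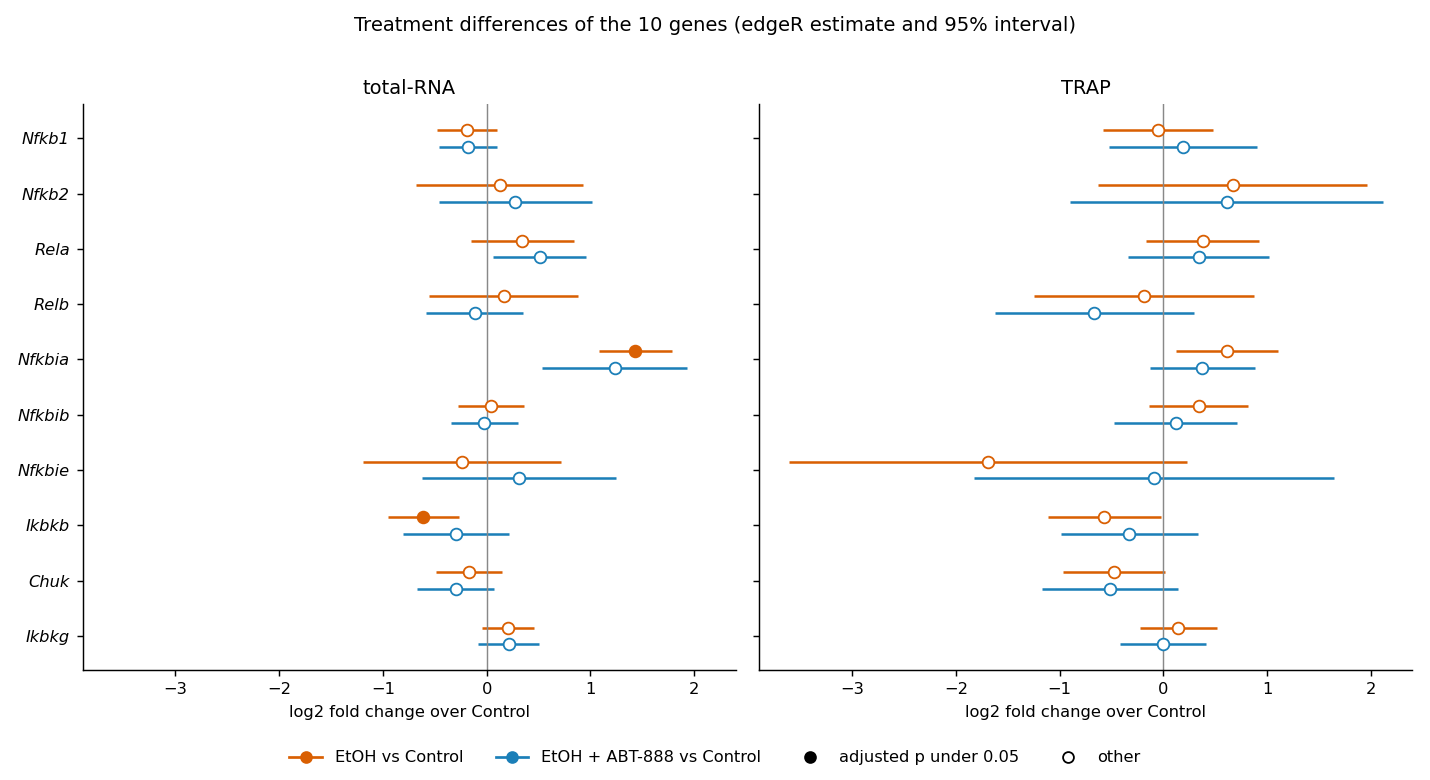
Log2 fold change over Control (horizontal axis, the same in both panels) of the 10 genes for the 2 ethanol groups, in total-RNA and in TRAP, with 95% intervals and filled points where the adjusted p was under 0.05. Only Nfkbia at 1.43 and Ikbkb at -0.61 are filled, both for EtOH in total-RNA, and the 2 colors share the same Control libraries.

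Counted over the 10 genes, EtOH against Control called 2 in total-RNA, 1 in each direction, where 17.6% of all 14072 genes were called, so the share among the components was near the background. Their median log2 fold change was 0.08, against 0.00 over all genes. In TRAP, EtOH against Control called 0 of 10, where 5.24% of all genes were called, with 2 components, Nfkbia and Ikbkb, at an unadjusted p under 0.05 (edgeR), as were 23.1% of all genes, and 0 by exactTest or DESeq2. EtOH + ABT-888 against Control called 0 of 10 in TRAP (background 0.476%), with 0 at an unadjusted p under 0.05, against 12.1% of all genes, and 0 by exactTest and DESeq2, which called 316 and 420 of all genes. In total-RNA it called 0 of 10 (background 0.263%), with 2 (Nfkbia and Rela) unadjusted, as were 15.9% of all genes, and 1 (Nfkbia) by exactTest and by DESeq2, which called 544 and 621 of all genes. EtOH + ABT-888 against EtOH called 0 of 10 in TRAP and 0 of 10 in total-RNA, where 0.0% of all genes were called in each, and 0 components unadjusted, against 0.966% and 1.91% of all genes, or by the other tools. By ranges rather than tests, the libraries of 2 of 10 components did not overlap between EtOH and Control in total-RNA (all genes 30.5%) and 2 in TRAP (22.3%), 2 between EtOH + ABT-888 and Control in total-RNA (16.9%) and 2 in TRAP (14%), and 0 between the ethanol groups in total-RNA (1.36%) or TRAP (0.945%). The non-overlapping genes were Nfkbia in all 4, with Ikbkb, Chuk, Nfkb1 and Relb in the order named.

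Microglial markers moved with the total-RNA comparison in which Nfkbia and Ikbkb were called. Their summed level was 362.638 to 372.215 CPM in Control, 149.2 to 232.275 CPM in EtOH and 154.745 to 298.814 CPM in EtOH + ABT-888 total-RNA, 6 of 8 were called lower with EtOH and 0 higher, where 8.6% of all genes were lower and 9.04% higher, and none was at 0 there. Other marker lists moved in the same comparison: 4 of 10 excitatory neuron markers were lower and 1 higher (median -0.32), and 3 of 8 endothelial and pericyte markers were lower (median 0.04). In TRAP, 2 of 10 excitatory markers were lower with EtOH (median -0.92) and 4 of 10 with EtOH + ABT-888 (median -1.11), with 0 higher. Of all genes 2.47% were lower with EtOH and 0.476% were called with EtOH + ABT-888. The summed excitatory markers overlapped there, at 2547 to 2815 CPM in Control, 2520 to 3411 CPM in EtOH and 2252 to 3271 CPM in EtOH + ABT-888. With EtOH, 1 of 8 microglial markers (median -0.71) and 1 of 10 striatal markers (median -0.02) were also lower in TRAP. In bulk RNA, fewer cells of a type and less RNA per cell cannot be told apart. Across the 22 libraries, after the mean of each pool was removed, the log level of Ikbkb had a Pearson r of 0.64 with the summed microglial markers and that of Nfkbia an r of -0.46. These libraries share treatment, depth and mouse, and treatment differences were left in the values. The values are a description, and the part of these cell types in either result was not tested. In TRAP the summed microglial markers were 12.4 to 68.6 CPM over all groups, and Cx3cr1 and Aif1 were each at 0 in at least 1 library.

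TRAP and total-RNA of the same treatment were then compared, which asks how the RNA on tagged ribosomes differed from the RNA of the whole tissue. In Control mice Nfkb1 was lower in TRAP, at 7.36 to 9.97 CPM against 17.8 to 19.8 CPM, a log2 fold change of -1.06 (SE 0.15; edgeR, adjusted p = 0.000105). Relb was higher in TRAP, at 4.72 to 5.54 CPM against 2.53, 3.04 and 3.22 CPM, a log2 fold change of 0.81 (SE 0.22; edgeR, adjusted p = 0.00793). The 2 pools did not overlap for either gene. These were 2 calls among the 10 genes, where 59.9% of all genes were called, 1 in each direction, where 29.5% were higher and 30.4% lower. The call of Relb was lost when one model was fitted to the 22 libraries together (adjusted p = 0.211).

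In EtOH mice 4 of 10 components were called, all lower in TRAP, where 50.7% of all genes were called and 26.5% were lower. Nfkb1 was at -0.95 (SE 0.19; adjusted p = 0.00144), Nfkbia at -1.18 (SE 0.20; adjusted p = 0.000559), Chuk at -0.64 (SE 0.19; adjusted p = 0.0155) and Nfkbie at -2.11 (SE 0.76; edgeR, adjusted p = 0.0354). For the first 3 the pools did not overlap. Nfkbie overlapped, since EtOH mouse 2 stood at 2.58 CPM in total-RNA and 0.800 CPM in TRAP while the other 3 total-RNA libraries were at 0.756, 0.855 and 0.630 CPM. Its call was lost without total-RNA mouse 2 (-1.40, adjusted p = 0.165) and without TRAP mice 5, 8 or 9 (adjusted p = 0.0602 to 0.0839). The call of Chuk was lost without total-RNA mouse 9 (adjusted p = 0.0566). Relb, by contrast, was not called in EtOH mice (0.46, 95% interval -0.69 to 1.61; adjusted p = 0.492). Its sign rested on 1 library: without TRAP mouse 2 the value was -0.32 (adjusted p = 0.543), and without each of the other 7 libraries it ran from 0.22 to 0.75 with no call.

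In EtOH + ABT-888 mice 1 of 10 components was called, where 41.0% of all genes were called. Nfkbia was lower in TRAP, with a log2 fold change of -1.202 (SE 0.30; edgeR, adjusted p = 0.00739). Nfkb1 was at -0.70 (95% interval -1.29 to -0.11; adjusted p = 0.0582), with no overlap between pools, and with the mouse as a block, since both libraries came from the same animal, it was called at -0.77 (adjusted p = 0.0113). Between pools 3 of 10 components did not overlap in Control (all genes 66.9%), 3 in EtOH (47.3%) and 2 in EtOH + ABT-888 mice (40.4%). Nfkb2 was at -0.92 in Control (95% interval -1.83 to -0.02; edgeR, adjusted p = 0.0738), -0.42 in EtOH and -0.65 in EtOH + ABT-888 mice, and in Control it was called by exactTest (adjusted p = 0.0287) and without TRAP mouse 4 (-1.25, adjusted p = 0.0363). Rela, Nfkbib, Ikbkb and Ikbkg were not called between pools in any treatment, and their estimates ran from -0.35 to 0.33.

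**Figure D4:**
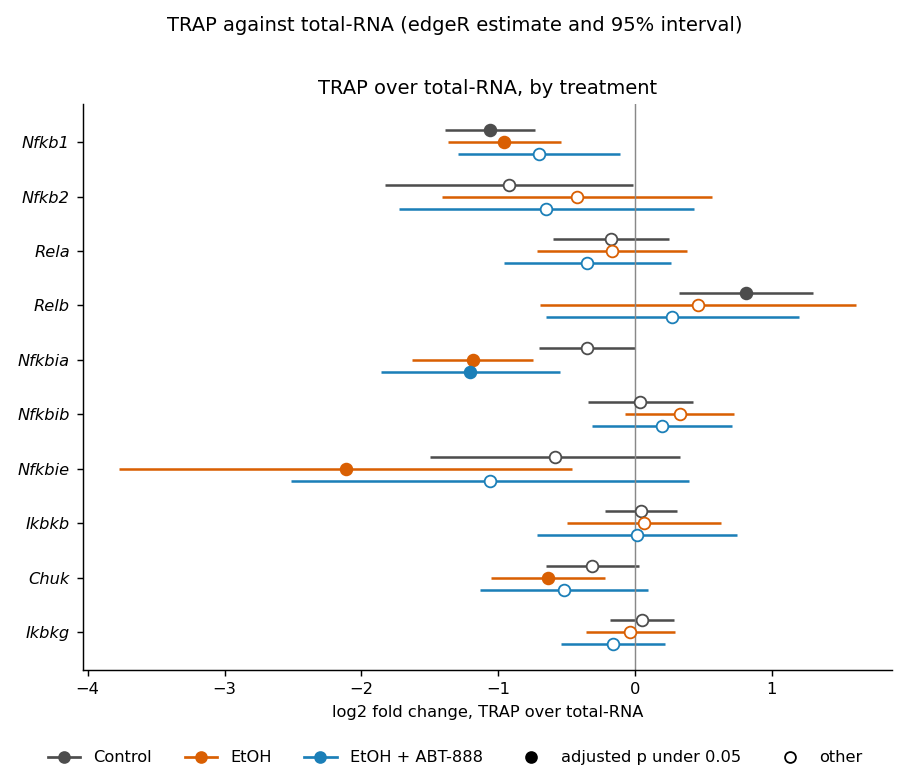
Log2 fold change of TRAP over total-RNA (horizontal axis) of the 10 genes in the 3 treatments, with 95% intervals and filled points where the adjusted p was under 0.05. Nfkb1 lies left of 0 in all 3 treatments, from -1.06 to -0.70, and Nfkbia moves from -0.35 in Control to -1.18 and -1.202 in the treated mice.

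Markers of glia and vessels, of cortical excitatory neurons and of striatal projection neurons moved with this comparison, as given above. The part of these cells in the differences between pools was not tested. Within mice, the ratio of TRAP to total-RNA CPM of Nfkbia was 0.714, 0.796 and 0.898 in Control, 0.561, 0.356, 0.417 and 0.457 in EtOH and 0.716, 0.333, 0.362 and 0.543 in EtOH + ABT-888. The EtOH ratios lay below Control with no overlap, and EtOH + ABT-888 mouse 3 was at the lower end of the Control range. The interaction of treatment with pool, which tests the change of this ratio, was -0.83 on the log2 scale for EtOH (95% interval -1.62 to -0.04) and -0.87 for EtOH + ABT-888 (-1.66 to -0.07), and neither passed over all genes (edgeR, adjusted p = 1.00 in both). No component passed either interaction by edgeR's quasi-likelihood test, its likelihood ratio test or DESeq2, where 0.0213% and 0.0% of all genes were called by the first. Unadjusted, 1 component, Nfkbia, was under 0.05 in each, as were 4.87% and 3.38% of all genes. For Relb the interactions were -0.35 (-1.77 to 1.07) and -0.55 (-1.98 to 0.89), and the first was -1.14 without EtOH TRAP mouse 2 and -0.06 without EtOH total-RNA mouse 2, with no call, so that its higher TRAP level in Control was not shown to differ from the treated mice.

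**Figure D5:**
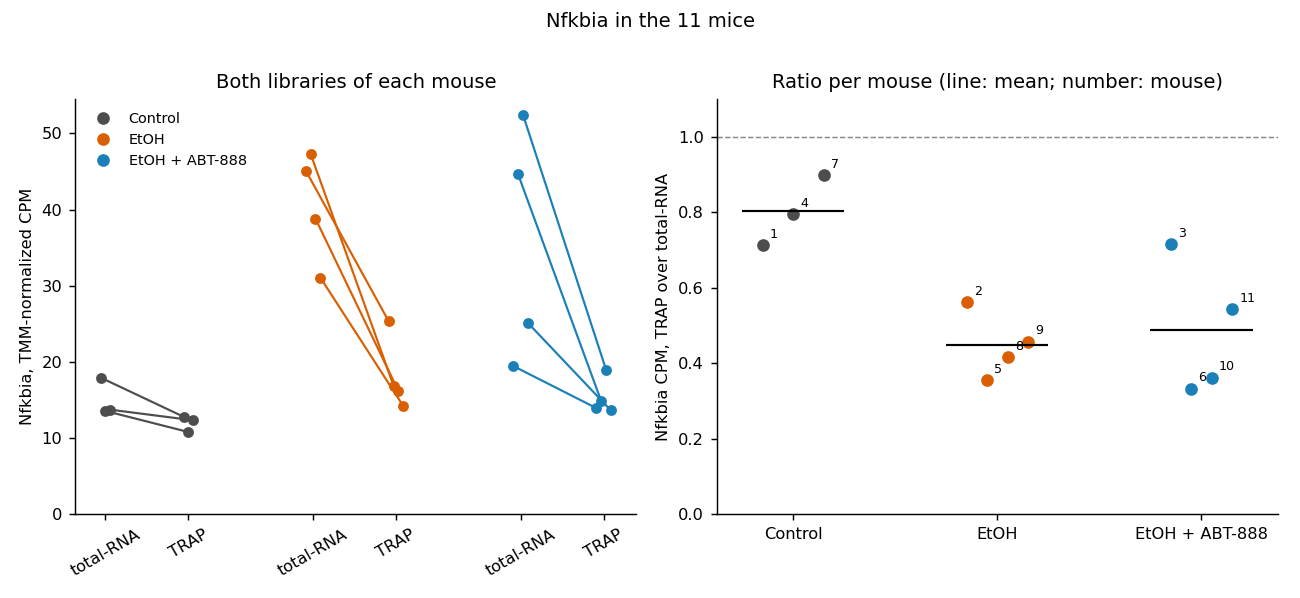
Left, Nfkbia in TMM-normalized CPM in the total-RNA and TRAP library of each of the 11 mice, joined by a line. Right, the ratio of TRAP to total-RNA CPM per mouse with the group mean and the mouse number, where Control mice lie at 0.714 to 0.898 and EtOH mice at 0.356 to 0.561.

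Other genes of the pathway were grouped in lists. Rel, which encodes c-Rel, did not pass the test: its total-RNA mean was 10.3 ± 0.819 CPM (SD, n = 3) in Control, 12.4 ± 1.49 CPM (SD, n = 4) in EtOH and 12.05 ± 1.83 CPM (SD, n = 4) in EtOH + ABT-888 (edgeR, adjusted p = 0.218 and 0.527 against Control). Of 7 other Rel and IκB family genes tested, Rel included, 0 were called in any treatment comparison, with a median of 0.28 for EtOH in total-RNA. Against Control, 17.6% of all genes were called with EtOH in total-RNA and 5.24% in TRAP. With EtOH + ABT-888 these shares were 0.263% and 0.476%. Between pools, Nkiras2, which encodes a small GTPase that binds IκB, and Nfkbil1 were higher in TRAP in Control, by 0.99 (adjusted p = 0.000561) and 0.98 (adjusted p = 0.0128), and Nkrf, a repressing factor, was lower (-0.55, adjusted p = 0.0180). Nkiras1 (0.25) completes the count of 3 higher and 1 lower of 7, where 29.5% of all genes were higher and 30.4% lower.

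Upstream of IKK, 2 of 12 receptors and ligands were called in EtOH against Control total-RNA, both higher, with a list median of 0.44, where 9.04% of all genes were called higher and 8.6% lower. They were Tlr7, a receptor for single-stranded RNA (1.01, edgeR, adjusted p = 0.00358), and Il1r1, the interleukin-1 receptor (0.79, adjusted p = 0.0189). Il1r1 was also called with EtOH + ABT-888 (1.05, adjusted p = 0.0471), where 0.178% of all genes were called higher, against the same Control libraries. Of 20 adaptors and upstream kinases, 4 rose and 2 fell with EtOH, and the list median was 0.07. Traf6, the ubiquitin ligase downstream of Toll-like and interleukin-1 receptors, was higher by 0.64 (adjusted p = 0.00568), as were Bcl10 (0.64) and Tab3 (0.48), a binding partner of the kinase TAK1, and Irak2 was lower (-0.61, adjusted p = 0.00880). Tab2 (0.36) and Traf3 (-0.35) complete these counts and were named after their values were seen. Of 20 ubiquitin enzymes, Birc3 (1.29), Tnip2 (0.75) and Xiap (0.33) were higher and Btrc (-0.38), the ligase subunit that recognizes phosphorylated IκB, was lower, with a median of 0.20 over the list.

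Downstream, 12 of 27 target genes of NF-κB were called higher and 1 lower in EtOH against Control total-RNA, where 9.04% of all genes were higher and 8.6% lower, with a median log2 fold change of 0.45 over the list against 0.00 over all genes. The list holds Nfkb1, Nfkb2, Relb, Nfkbia and Nfkbie. The 4 with the smallest p were Nfkbia itself, Sdc4, a cell-surface proteoglycan (0.97, edgeR, adjusted p = 0.000688), Lcn2, lipocalin 2 of the acute phase (6.36, adjusted p = 0.00197), and Mmp9, a matrix protease (1.24, adjusted p = 0.00836). The one that fell was Bcl2 (-0.52, adjusted p = 0.0109), named here after its values were seen. In TRAP 1 target was higher and 1 lower of 27, where 2.77% of all genes were called higher and 2.47% lower: Bcl2 fell (-1.22, adjusted p = 0.00645), and Lcn2 was called at a mean of 2.38 CPM in EtOH, with no count in the 3 Control libraries. The list of glucocorticoid-induced genes, which also holds Nfkbia, had 16 of 16 higher with EtOH in total-RNA and 6 of 16 in TRAP, among them Sgk1 (1.88 and 0.95) and Fkbp5 (1.74 and 1.03). With EtOH + ABT-888 in total-RNA, 4 of 16 of these and 0 of 27 NF-κB targets were called, where 0.263% of all genes were called. The list medians were 1.32 and 0.51, against 1.32 and 0.45 with EtOH. Between EtOH + ABT-888 and EtOH in total-RNA, 0 genes of either list were called, where 0.0% of all genes were called.

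Between pools, 10 of 12 receptors and ligands were lower in TRAP in Control mice, 9 of 12 in EtOH and 9 of 12 in EtOH + ABT-888 mice and none was higher, where 30.4%, 26.5% and 21.5% of all genes were lower. Tlr3 (-3.05), Tlr7 (-3.58), Tnfrsf1a (-2.50) and Il1rap (-1.69) were those with the smallest p in Control. Of 20 adaptors and upstream kinases, 3 were higher and 6 lower in TRAP in Control, 1 and 8 in EtOH, and 2 and 4 in EtOH + ABT-888 mice. Of the 27 target genes, 6 were higher and 9 lower in Control, 1 and 14 in EtOH, and 1 and 11 in EtOH + ABT-888 mice. Of 20 ubiquitin enzymes, 9 were higher and 3 lower in Control, 5 and 4 in EtOH, and 3 and 3 in EtOH + ABT-888 mice, where 29.5%, 24.3% and 19.5% of all genes were higher. Among them Cyld, which removes ubiquitin chains in the pathway, was higher in TRAP by 1.54, 1.57 and 1.81 on the log2 scale in Control, EtOH and EtOH + ABT-888, at 763 CPM against 260 CPM in Control.

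PARP1, the enzyme that ABT-888 inhibits, is a coactivator of NF-κB. Parp1 in total-RNA was at 76.8 ± 6.10 CPM (SD, n = 3) in Control and 54.9 ± 10.7 CPM (SD, n = 4) in EtOH, a log2 fold change of -0.48 (SE 0.14; edgeR, adjusted p = 0.0356), and at 64.4 ± 23.05 CPM (SD, n = 4) in EtOH + ABT-888 (adjusted p = 0.662 against Control). In TRAP Parp1 ran from 17.9 to 114 CPM over the treated mice and none of its comparisons passed. Of the 13 nuclear cofactors among which Parp1 was listed, 1 was called higher and 1, Parp1, lower with EtOH in total-RNA. The list median was -0.01. Of all genes 9.04% were higher and 8.6% lower there, so these counts were near the background. Between pools 3 were higher and 3 lower in TRAP in Control, 5 and 1 in EtOH and 3 and 0 in EtOH + ABT-888 mice. In the same order, 29.5%, 24.3% and 19.5% of all genes were higher and 30.4%, 26.5% and 21.5% lower.

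For the 2 components called with treatment, the genes with the most similar levels over the 22 libraries, after the mean of each pool was removed, were listed. For Nfkbia they were Sgk1 (Pearson r = 0.89), Ddit4 (r = 0.88) and Spns2 (r = 0.88), of which Sgk1 and Ddit4 are in the glucocorticoid-induced list. For Ikbkb they were Akap1, Adam19 and Dhx29 (r = 0.96 to 0.97). Nfkbia and Ikbkb had an r of -0.62 with each other, the most negative of the 45 pairs of components, and Nfkbie and Ikbkb the highest, at 0.65. These values describe libraries that share treatment, depth and mouse.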

How the data were processed

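The deposited table held raw read counts per Ensembl gene for the 22 libraries. According to the labels and methods, the authors removed ribosomal RNA from the samples of both pools before library preparation, aligned paired reads to mm10 with STAR and counted with featureCounts. Versions, the strand setting and the treatment of multi-mapping reads are not given in the sources used here. Genes with fewer than 500 counts in all, or detected in fewer than 3 libraries, were removed, as in the study, which left 14072 of 39056 genes. Groups were compared in edgeR 4.0.16 (R 4.3.3) with TMM factors and the quasi-likelihood test, each fit holding the 2 groups compared and interactions all 22 libraries, with Benjamini-Hochberg adjustment over all genes tested and a threshold of 0.05. The test was checked on simulated counts. Exon lengths came from GENCODE M21 (GRCm38) and promoter windows from RefSeq. Alternatives were exactTest, DESeq2 1.42.0, RLE factors, other filters, one model over all libraries, the mouse as a block and leaving out each library. The components and lists were chosen with earlier results of these data known. Named genes were the components, Rel, Parp1 and, per list and comparison, at most 4 called genes by smallest p; 1 such gene is not reported here. Tab2, Traf3, Bcl2, Camk2a, Cx3cr1 and Aif1 were named in addition, after their values were seen. Libraries were paired by animal number. Deviations from group means correlated at 0.141 within mice of Control, 0.358 in EtOH and 0.356 in EtOH + ABT-888. Between mice the values were -0.0708, -0.119 and -0.115. The deviations of a group sum to 0, which ties the between-mouse values to the within-mouse ones with the sign reversed. They are therefore no separate check of the pairing.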

Additional observations from a re-analysis of the deposited data

Results flagged for a closer look

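In 40 groups of 4 libraries, 3 values lay far from the other libraries of their group, where chance flags about 1 in 20 groups. Relb in EtOH TRAP was at 10.6 CPM in mouse 2, against 2.11 to 3.34 CPM in the other 3 mice. Relb in EtOH + ABT-888 TRAP was at 0.901 CPM in mouse 6, against 3.75 to 4.26 CPM in the others. Nfkbie in EtOH total-RNA was at 2.58 CPM in mouse 2, against 0.630 to 0.855 CPM in the others, and without that library its difference from Control was -0.95 on the log2 scale in place of -0.24 (edgeR, adjusted p = 0.0732 in place of 0.741).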

How the results depend on the processing

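Of 1650 values of the 10 components under alternatives, 1626 kept their direction and side of the threshold, or moved sign without being called in either fit (87 values), 15 became called and 9 were lost. Components called between EtOH and Control in total-RNA went from 2 to 1 when one model was fitted to all libraries, and ran from 1 to 2 on leaving out a library. Between EtOH + ABT-888 and Control in total-RNA 1 was called in place of 0 by exactTest, DESeq2 and without a filter, and 0 to 1 on leaving out a library. In TRAP, EtOH against Control gave 0 to 1 on leaving out a library. Between pools, Control gave 1 with one model over all libraries and 3 by exactTest in place of 2, and 2 to 3 on leaving out a library, and EtOH + ABT-888 gave 2 in place of 1 by exactTest, DESeq2, RLE factors, with the mouse as replicate block and in one model of every library, and 1 to 3 on leaving out a library. Pairing by the block changed no other call of a component. The cause of these shifts was not tested.

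Over all genes, EtOH against Control in TRAP called 737, and 1365 by exactTest, 1523 by DESeq2, 1472 without a filter, 1191 in one model and 84 to 1550 on leaving out a library. EtOH + ABT-888 against Control in TRAP called 67, and 316, 420, 454 and 403 under the same 4 settings and 0 to 373 on leaving out a library. In total-RNA, EtOH against Control called 2482, and 151 in one model and 878 to 3616 on leaving out a library. EtOH + ABT-888 against Control called 37, and 544, 621 and 544 by exactTest, DESeq2 and without a filter, 70 with filterByExpr and 0 to 870 on leaving out a library. EtOH + ABT-888 against EtOH in total-RNA called 0, and 2 by exactTest and by DESeq2. The EtOH interaction called 3, and 16 by the likelihood ratio test, 16 by DESeq2, 5 without a filter, 5 with only its 4 groups, 14 with the replicate block and 1 to 5 on leaving out a library. The EtOH + ABT-888 interaction called 0, and 6, 4, 1 and 1 under the first 4 of these. Depth limits Nfkbie and Nfkb2, whose TRAP libraries held 1 to 25 counts.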
